A study of Mus musculus with 2 samples.

Results

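The nuclear-encoded respiratory chain genes are the mouse genes whose symbols name a subunit of the 5 complexes of oxidative phosphorylation (symbols that begin with Nduf and a, b, c, s or v plus a number, Sdha to Sdhd, Uqcr, Cox4 to Cox8, and Atp5), with pseudogene symbols ending in -ps left out. A gene was kept as a member where at least 100 unique molecular identifiers (UMIs, each counting 1 captured transcript molecule) were found in each library over droplets with at least 2000 UMIs. Of 32285 genes in the tables, 84 symbols matched and 78 met the minimum. Placed by their symbols, 37 are counted under complex I, 4 under complex II, 8 under complex III, 12 under complex IV and 17 under complex V. The member nearest to the minimum was Ndufa4l2, with 402 UMIs in the PADI4 WT and 444 in the PADI4 cKO library. Cox4i2 was just outside it, with 118 and 98 UMIs, and the other genes left out were Cox7a1, Cox6a2, Cox7b2, Cox8b and Cox8c.

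The respiratory chain passes electrons from NADH and succinate through complexes I to IV to oxygen and pumps protons across the inner mitochondrial membrane, and complex V uses the proton gradient to make ATP. Complexes I, III, IV and V are built from nuclear-encoded subunits that are imported into mitochondria and from a few subunits encoded in mitochondrial DNA (the mt- genes), whereas complex II is entirely nuclear-encoded. In skin, keratinocytes draw on glycolysis beside respiration, and sebocytes are lipid-producing cells rich in mitochondria.

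The series held 2 single-cell libraries (10x Genomics 3′ chemistry) of back skin at postnatal day 1, labelled by genotype as PADI4 WT and PADI4 cKO, with 1 library per genotype in batch 1. PADI4 converts peptidylarginine to citrulline, and in the cKO the floxed allele (Padi4 fl/fl) is removed by Cre driven by K14, a promoter of basal keratinocytes and their progeny. The labels name K14-Cre Padi4 fl/fl mice and do not say which of these alleles the WT animals carried. Per the study, the cells profiled as WT were positive for the K14-Cre tdTomato reporter. Only the Padi4 allele of these animals is thus not given. Per the methods of the study, the floxed allele came from the line B6.Cg-Padi4tm1.2Kmow/J and the reporter from Ai14. The number of animals per library is not given in the sources used here. Cells came from the dermal side after removal of the epidermis and were sorted for tdTomato, the reporter of K14-Cre, so follicle cells prevail.

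Each library held about the same number of UMIs in all droplets (143938990 and 143945294), and 8087 PADI4 WT and 7393 PADI4 cKO epithelial cells were kept, with a median of 14661 and 16189 UMIs per cell. Padi4 itself was found at 0.771 CPM (counts per 1000000 UMIs, 99 UMIs) in the PADI4 WT and at 0.686 CPM (89 UMIs) in the PADI4 cKO library, with overlapping intervals of 0.626 to 0.938 and 0.551 to 0.844. A 3′ tag checks a deletion only where it lies in the deleted exons, which are not given in the sources used here, so the second library is called the library labelled PADI4 cKO. Xist without any Y-linked transcript was present in 26.9% of the cells of the PADI4 WT library and the reverse in 59.6%, against 99.7% and 0.0% in the other library, so differences over all cells between the libraries also set cells of both kinds against cells with Xist. The libraries shared 17 barcodes among droplets with at least 2000 UMIs. With 1 library per genotype no test between genotypes or classes is possible. All intervals given are exact 95% intervals for counting error only, and no p-values are given.

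Cells were assigned to 10 classes by markers, where a marker counted if the cell had at least 2 of its UMIs and at least 3 times its mean level, and at least 2 markers of the list were needed. The classes are named after the layers whose markers they carry: outer root sheath (ORS-like), lower proximal cup (LPC-like), germinative layer (GL-like), inner root sheath (IRS-like), hair cortex and cuticle (Cx-like), medulla (Med-like), suprabasal interfollicular epidermis (IFE-like), upper follicle (uHF-like), sebaceous gland (SG-like) and contractile epithelial cells with Acta2 and Tagln (contractile-like). Gated classes held from 73 cells (SG-like, PADI4 WT) to 1007 cells (ORS-like, library labelled PADI4 cKO), and 3968 and 3339 cells met no gate. Because these markers chose the cells, their levels in a class are a description and no check of it: all 6 SG-like and all 6 ORS-like markers stood at least 1.5 times above the other cells, as did 6 of 10 in Cx-like and 3 of 4 in Med-like cells. SG-like cells also carried 3 of 6 IFE-like and 3 of 6 uHF-like markers at that level. The member genes were used by no gate.

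The members took up a similar share of transcripts in most classes and a larger one in SG-like cells. Their summed level was 27524 CPM (27235 to 27816) in SG-like cells of the PADI4 WT library and 26412 CPM (26169 to 26658) in the same class of the library labelled PADI4 cKO. IRS-like cells stood at 21600 and 20619 CPM, GL-like cells at 21279 and 20303 CPM, and IFE-like cells at 20395 and 21049 CPM. ORS-like cells had the lowest sum in both libraries, 17723 CPM (17643 to 17803) and 16801 CPM (16726 to 16876), and Cx-like cells the next, at 18158 and 17346 CPM. Contractile-like, LPC-like, uHF-like and Med-like cells lay between, from 18362 to 20489 CPM, and the order of the middle classes differed between the libraries. Relative to the other epithelial cells of the same library, the sum stood at a log2 ratio of 0.41 (1.33-fold) in SG-like cells in both libraries, and at -0.24 and -0.27 in ORS-like cells.

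The mitochondrially encoded transcripts did not follow the nuclear ones in proportion. The 13 mt- protein genes summed to between 29919 CPM (Cx-like) and 37847 CPM (IFE-like), both in the PADI4 WT library. In SG-like cells they stood at 37402 and 35897 CPM, a log2 ratio to the other cells of 0.14 and 0.11. The ratio of member UMIs to mt- UMIs was 0.736 in SG-like cells of both libraries, against 0.612 and 0.598 over all epithelial cells. The other 9 classes ranged from 0.539 (IFE-like, PADI4 WT) to 0.653 (contractile-like, PADI4 WT). The IFE-like class had the widest difference between the libraries, with a ratio of 0.539 against 0.608 in the library labelled PADI4 cKO, where its mt- sum was 34604 CPM. The gate held different cells in the libraries: 111 of its 415 PADI4 WT cells (26.7%) but 7 of its 194 cells in the other library (3.61%) fell in an unsupervised cluster led by Krt1. Outside that cluster, a split chosen after the values were seen, the ratios were 0.577 and 0.611. In droplets taken as empty, the members stood at 25100 and 24960 CPM, above the level in cells of every class but SG-like, and the part of free RNA in the class differences was tested only by subtraction, which moved the SG-like log2 ratio to 0.45 and the ORS-like one to -0.29.

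**Figure D1:**
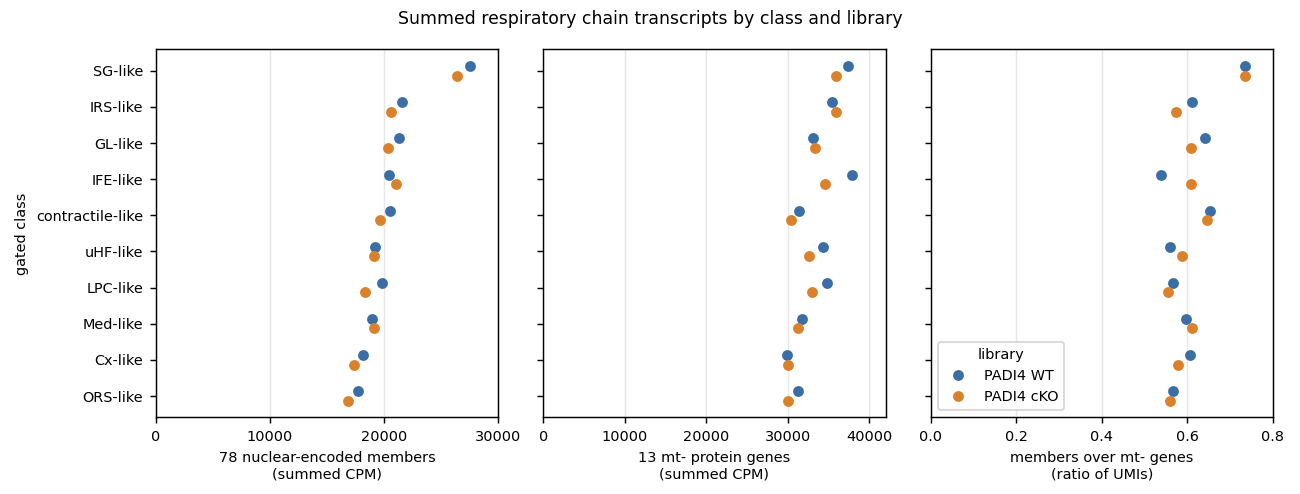
Summed CPM of the 78 members (left), summed CPM of the 13 mt- protein genes (middle) and the ratio of their UMIs (right) by gated class, with 1 point per library and lines for 95% counting intervals, which are narrower than the points. SG-like cells have the highest member sum and ratio in both libraries, 0.736, and ORS-like cells the lowest member sum.

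Most members varied little over the classes. Of the 76 members with at least 100 UMIs in every class, the highest class stood a median of 1.71-fold above the lowest, and 77.6% stayed within 2-fold. Over all 4598 genes that met the same minimum, the median was 1.77-fold and 62.0% stayed within 2-fold. The 12 mt- genes compared all stayed within 2-fold, with a median of 1.41-fold. SG-like cells were the highest class for 65 of the 76 members, and the lowest class was ORS-like for 40 and Cx-like for 23. Ndufa7 varied least (1.28-fold) and Ndufa11 most (2.82-fold), both accessory subunits of complex I.

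In SG-like cells, 22 of 76 members (28.9%) stood above the other cells by at least 0.5 on the log2 scale in both libraries and none stood below by as much. Of all 5107 genes compared in this class, 16.5% stood above and 9.24% below by the same rule. The median log2 ratio was 0.42 over the members and 0.08 over all genes. The minimum of 100 UMIs in the class admits genes of low level where they are high there. With the minimum set instead on the UMIs a gene would have at its level in the other cells, a choice made after the values were seen, the count was again 22 of 76, while 8.85% of 5300 genes stood above and 19.4% below. When every cell was thinned to 2000 UMIs, 7 members stood above in place of 22. The minimum of 100 UMIs was kept there, so members of lower level were no longer compared. The smaller count thus includes members that dropped out of the comparison. Subunits of complex III (cytochrome bc1) had the highest median, 0.66, and the medians of complexes I, II, IV and V were 0.41, 0.38, 0.42 and 0.47. Uqcrfs1, the Rieske iron-sulphur subunit of complex III, stood at 235 and 219 CPM in SG-like cells, a log2 ratio of 0.81 in both libraries. Uqcrq, a small subunit of the same complex, stood at 443 and 447 CPM, at 0.81 and 0.76. Cox7b, an X-linked subunit of cytochrome c oxidase, was the member furthest above, with 619 and 570 CPM. Its log2 ratios were 1.15 (1.05 to 1.26) and 1.09 (1.00 to 1.19), and in the other 9 classes it lay between 222 and 296 CPM.

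The catalytic and core subunits were above the other cells to different degrees. Ndufs1, which carries iron-sulphur clusters of complex I, stood at 95.4 and 92.3 CPM (log2 ratios 0.62 and 0.57), whereas Ndufv1, the NADH-binding subunit, stood at 0.44 and 0.42, under the threshold. Sdha, the flavoprotein of succinate dehydrogenase, stood at 142 and 157 CPM (0.57 and 0.70), and its partner Sdhb, the iron-sulphur subunit, at 138 and 137 CPM (-0.10 and -0.07). The complex V catalytic subunits Atp5a1 and Atp5b stood at 0.20 and 0.29 and at 0.46 and 0.48. The 3 genes of the c subunit, which encode the same mature protein, differed from each other: Atp5g3 stood at 512 and 446 CPM (0.95 and 0.86), Atp5g1 at 604 and 573 CPM (0.45 and 0.38), and Atp5g2 at 529 and 499 CPM (-0.27 and -0.22). Of the 31-base words at the ends of transcripts, 49.6% of those of Atp5g2 and 52.1% of those of Atp5g1 occur also in transcripts of other genes, so the values of these 2 genes are uncertain.

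The SG-like gate held cells of 2 kinds, and the high level lay in 1 of them. In an unsupervised clustering made without the members, the mt- genes or ribosomal protein genes, 88 of the 170 SG-like cells fell in a cluster led by Cyp2g1, Far2, Soat1, Cidea and Elovl3, genes of sebaceous lipid metabolism among them. These cells had a summed member level of 33896 CPM (33483 to 34312, 41 cells) in the PADI4 WT and 32201 CPM (31836 to 32569, 47 cells) in the other library. The 82 SG-like cells outside that cluster had 17796 and 19544 CPM, within the range of the other 9 classes. Of these, 59 fell in a cluster named uHF-like by the same marker lists and 13 in a cluster named ORS-like. Their SG-like name thus rests on the gate and not on the clustering. Pparg, the master regulator of sebocytes and adipocytes, was present in both kinds (1310 and 1550 CPM inside, 1010 and 1120 CPM outside), whereas Elovl3, a fatty acid elongase, stood at 357 and 217 CPM inside and at 2.01 and 10.3 CPM outside. The ratio of members to mt- genes was 0.821 and 0.863 inside and 0.565 and 0.571 outside. This split was chosen after the values were seen, and with it 51 members stood above the threshold in place of 22.

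**Figure D2:**
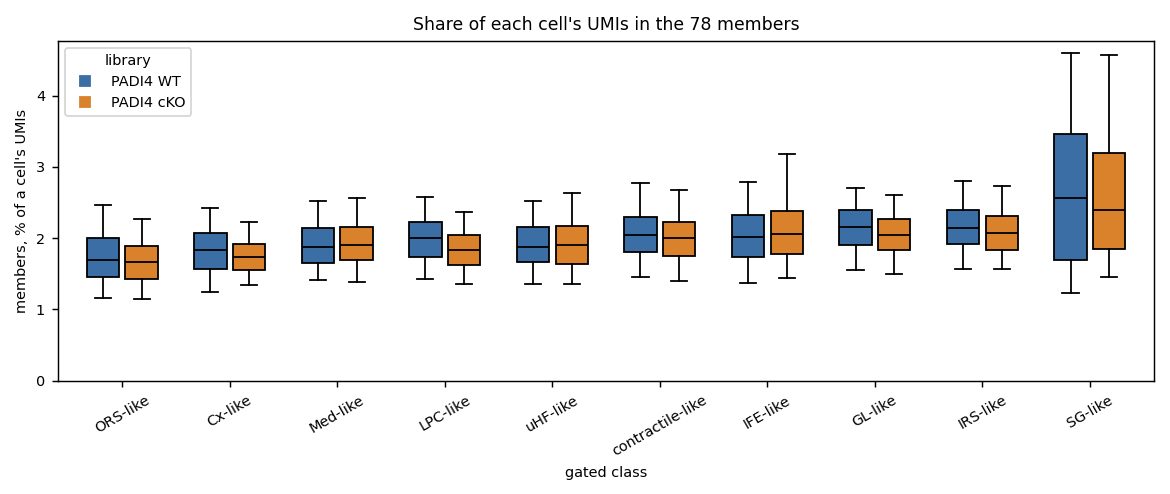
Share of each cell's UMIs that fell in the 78 members, by class and library; boxes span the middle 50% of cells with the median as a line, and whiskers run from the 5th to the 95th percentile. The SG-like boxes are the widest, from 1.69% to 3.46% in the PADI4 WT library, and the other classes have medians between 1.66% and 2.15%.

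Some groups of genes that work with the chain were higher in SG-like cells and others were not. Of 42 assembly factors, 24 met the minimum in this small class and 18 did not, and 6 of the 24 met it only through their level there. Of the 18 that met it at the level of the other cells, 7 stood above the threshold and none below (38.9%, against 8.85% of all genes by that rule), with a median log2 ratio of 0.48. The largest was Acad9, a complex I assembly factor related to fatty acid dehydrogenases, at 278 and 210 CPM (2.60 and 2.33). Of the 7 genes of cytochrome c and the carriers, all compared by either rule, those above were cytochrome c (Cycs, 0.68 and 0.50) and the outer membrane channels Vdac1 and Vdac2. Of 78 mitochondrial ribosomal protein genes, 69 were compared at the level of the other cells and 7 of them stood above (10.1%), near the share of all genes, with a median of 0.18. Of 17 genes of mitochondrial DNA and RNA, 4 were compared so and only Lrpprc stood above. Among 9 regulators, the coactivator Ppargc1b was at 87.5 and 84.7 CPM (1.96 and 1.87) and the nuclear receptor Esrra at 39.0 and 34.1 CPM (1.51 and 1.54). Both met the minimum only through their level in SG-like cells, with 254 and 107 UMIs where 68.1 and 37.5 would be found at the level of the other cells, so they are given as values. Of the 2 regulators compared by the other rule neither was past the threshold.

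ORS-like cells had lower levels of most members by small amounts. The median log2 ratio was -0.31 over the 78 members and 0.06 over all genes. By the mean of both libraries 68 members were lower and 10 higher, and 67 were lower in both. Below -0.5 in both libraries were 9 members (11.5%), a share near the 12.8% of all genes. The lowest was Ndufa4, counted here under complex I by its symbol though now placed in complex IV, at 224 and 184 CPM (-0.73 and -0.89). Cox5a, a structural subunit of complex IV, followed at 282 and 256 CPM (-0.65 and -0.73). Uqcrq stood at 180 and 168 CPM (-0.54 and -0.72). Cox4i1, which binds Cox5a in the same complex, was not lower, at 0.05 and 0.07. ORS-like cells had the fewest UMIs of the 10 classes, with a median of 9341 and 10618 per cell. After thinning every cell to 2000 UMIs the log2 ratio of the summed members was -0.28 in place of -0.26. Thinning keeps each cell's expected share of the members and only weights cells equally, so it cannot tell whether depth plays a part. The count of 9 became 0 when classes were taken from clusters and 18 when 3 markers were needed, so it depends on which cells are called ORS-like. In the clustering made without the members, 800 cells of the ORS-like gate fell in a cluster named ORS-like with members at 15520 CPM. The other clusters named ORS-like stood at 17640 to 20060 CPM, so the level was uneven within the class. These clusters were compared after the values were seen.

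Among the other genes of the pathway, the mitochondrial ribosomal proteins had the largest count below in ORS-like cells. Of 78 such genes 21 stood below -0.5 (26.9%, against 12.8% of all genes) and none above 0.5, with a median of -0.40. Of 42 assembly factors 5 stood below (11.9%), a share near that of all genes, and of 7 regulators compared 1 did, with a median of -0.09. Of 16 genes of mitochondrial DNA and RNA 3 stood below and 1 (Polg2) above, and of the 7 genes of cytochrome c and the carriers 2 stood below. These were Cycs at 123 and 128 CPM (-0.92 and -0.91) and the phosphate carrier Slc25a3 at -0.52 and -0.54. Citrate synthase (Cs), named after its values were seen, stood at 74.9 and 68.2 CPM (-0.79 and -0.97). These counts were the same with the minimum set at the level of the other cells, by which 15.7% of all genes stood below and 14.7% above.

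Above 0.5 in ORS-like cells were 2 members (2.56%, against 18.7% of all genes), Ndufa4l2 and Ndufa11. Ndufa4l2, a paralogue of Ndufa4 known as a target of hypoxia-inducible factor, stood at 11.5 CPM (9.59 to 13.8) and 16.0 CPM (13.8 to 18.5), with log2 ratios of 2.39 and 3.09. It met the minimum in ORS-like cells alone and only through its level there (307 UMIs, where 45.1 would be found at the level of the other cells), so its place in the count of 2 is no support for it. It was seen in IFE-like cells at 9.08 and 9.16 CPM and in uHF-like cells at 10.5 and 6.14 CPM, and lay at or under 2.35 CPM in the other 7 classes. Ndufa4 itself had its lowest level in ORS-like cells. Cox7a2l, described as a factor that joins complexes III and IV into supercomplexes, had its highest level there, 456 and 467 CPM (0.49 and 0.69). It was just under the threshold in the PADI4 WT library, and its function in these mice was not tested. Its sister Cox7a2 moved the other way, at 291 and 245 CPM (-0.32 and -0.51).

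Ndufa11, an accessory subunit in the membrane arm of complex I, varied most among the members with at least 100 UMIs in every class. Uqcrh of complex III had smaller log2 ratios of the same sign, given as means of both libraries. They were 0.23 in ORS-like, -0.19 in GL-like, -0.22 in IRS-like, -0.22 in Cx-like and -0.19 in Med-like cells. Ndufa11 was at 450 CPM (438 to 463) and 484 CPM (472 to 497) in ORS-like cells, the highest class, and at 166 and 165 CPM in Cx-like cells, the lowest. Its log2 ratio to the other cells was 0.62 and 0.66 in ORS-like, -0.57 and -0.63 in GL-like, -0.63 and -0.58 in IRS-like, -0.89 and -0.97 in Cx-like, and -0.72 and -0.84 in Med-like cells. Ndufa11 was thus past the threshold in 5 of 10 classes, low in GL-like, IRS-like, Cx-like and Med-like cells and high in ORS-like cells. Contractile-like cells stood at 381 and 384 CPM. IFE-like cells stood at 325 CPM (310 to 340) in the PADI4 WT and 451 CPM (426 to 477) in the other library, and the sign in this class turned with the way cells were classed (0.29 as the mean of both libraries by gates, -0.71 by clusters). Under the alternatives the ratio stayed between 0.55 and 0.83 in ORS-like and between -1.09 and -0.90 in Cx-like cells. The gene lies on chr17:56717767-56722141 of GRCm38 on the plus strand and is overlapped by Vmac on the other strand. Of the 31-base words at the ends of its transcripts, 10.5% occur also in transcripts of another annotated gene, Ndufa11b.

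Cox6b2, known as the testis form of the complex IV subunit Cox6b, was detected at 8.92 to 50.1 CPM over classes and libraries. It was highest in GL-like and contractile-like cells. GL-like cells stood at 50.1 CPM (46.5 to 53.9) and 43.1 CPM (40.3 to 46.1), with log2 ratios of 0.57 and 0.53. Contractile-like cells stood at 44.1 CPM (37.5 to 51.5) and 44.9 CPM (37.3 to 53.7), at 0.32 and 0.51, and the intervals of the 2 classes overlap. In IRS-like cells it stood at 17.0 and 15.5 CPM, with ratios of -1.12 and -1.09. The common form Cox6b1 varied less, from 276 CPM (ORS-like) to 503 CPM (SG-like), and was at 351 and 325 CPM in GL-like and 375 and 357 CPM in IRS-like cells. Cox6b2 and Ndufa11 were the only members past the threshold in GL-like cells, 1 above and 1 below of 77, against 4.02% and 11.1% of all genes. They were also the only members past it in IRS-like cells, both below (2.60%, against 13.1% of all genes below and 8.66% above). The other isoform pairs were left with 1 measurable form each: Cox4i1, Cox6a1 and Cox8a, whose tissue-restricted partners missed the minimum.

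**Figure D3:**
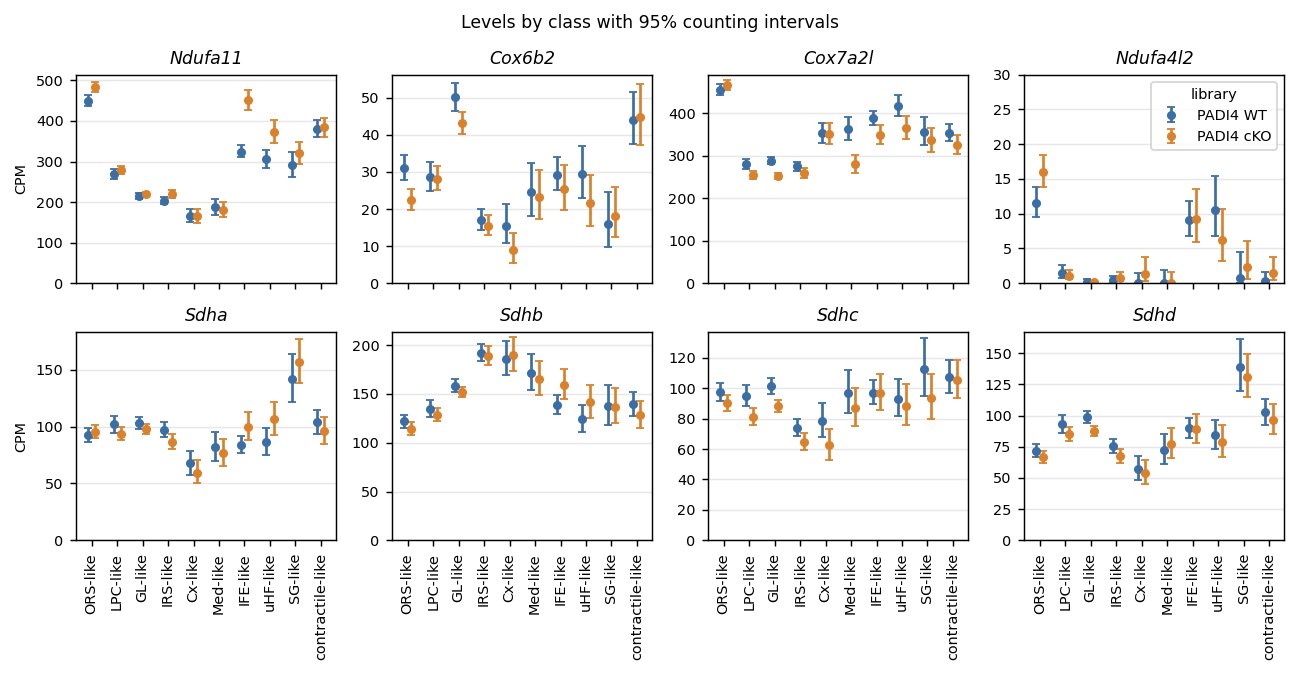
CPM of Ndufa11, Cox6b2, Cox7a2l, Ndufa4l2 and the 4 succinate dehydrogenase subunits by class, with 1 point per library and 95% counting intervals. Ndufa11 is highest in ORS-like and lowest in Cx-like cells, Cox6b2 highest in GL-like and contractile-like cells, and Sdhb highest in IRS-like and Cx-like cells, where Sdhc and Sdhd are below the other cells.

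The 4 subunits of succinate dehydrogenase (complex II) parted ways in the hair-forming and inner sheath cells. In Cx-like cells Sdhb stood at 186 and 190 CPM, with log2 ratios of 0.34 (0.20 to 0.47) and 0.41 (0.27 to 0.55). Sdha stood at 67.7 and 59.5 CPM there, at -0.51 (-0.75 to -0.30) and -0.72 (-0.98 to -0.48). The membrane anchors Sdhc and Sdhd stood at -0.32 and -0.50 and at -0.69 and -0.67. In IRS-like cells Sdhb was again higher (192 and 189 CPM, 0.41 and 0.42) while Sdhc (-0.43 and -0.47) and Sdhd (-0.31 and -0.37) were lower, and Sdha stood at 0.01 and -0.19. In SG-like cells the order was the other way round, with Sdha and Sdhd above and Sdhb near 0. The ratio of Sdhb in Cx-like cells stayed between 0.35 and 0.51 under the alternatives, and that of Sdhd between -0.95 and -0.64.

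In Cx-like cells 5 of 76 members stood below -0.5 (6.58%, against 11.0% of all genes) and none above 0.5 (11.1% of all genes): Ndufa11, Sdhd, Sdha, Atp5g1 and Atp5o, a subunit of the stalk of ATP synthase. The median was -0.21 over the members and 0.03 over all genes, and 67 of 76 members were lower by the mean of both libraries, 65 in both. Beside them, citrate synthase was higher in Cx-like cells (201 and 209 CPM, 0.71 and 0.72) and so in IRS-like (0.56 and 0.66) and Med-like cells (0.59 and 0.52). Suclg2, of succinyl-CoA synthetase, was lower in Cx-like (-0.93 and -1.27) and Med-like cells (-1.01 and -1.25). Citrate synthase and Suclg2 were chosen after their values were seen and do not stand for their pathway. Of the 7 genes of cytochrome c and the carriers 2 stood below -0.5 in Cx-like cells and none above 0.5. They were the channel Vdac1 at 62.0 and 48.0 CPM (-1.42 and -1.70) and the carrier Slc25a4 (-0.87 and -0.65). Vdac1 was lower in Med-like cells too (-1.56 and -0.74).

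The remaining classes held few members past the threshold. In Med-like cells Ndufa11 alone stood below (1 of 77, against 5.38% of all genes, with 6.84% above). LPC-like (4.68% of all genes above, 4.19% below), IFE-like (7.08% and 4.89%), uHF-like (8.95% and 5.02%) and contractile-like cells (13.8% and 7.11%) held none. The medians over the members in these 5 classes lay between -0.11 and 0.03. In LPC-like cells 70 of 77 members were lower by the mean of both libraries and 57 in both. The median there was -0.08 against 0.01 over all genes, and no class had its share of all genes lower counted. Cox8a at 521 and 494 CPM (-0.25 and -0.29) was among the lowest 3 there. In uHF-like cells Ndufs4, an accessory subunit of complex I, was highest at 195 and 194 CPM (0.36 and 0.48). In contractile-like cells Ndufs1 was lowest at 49.3 and 44.9 CPM (-0.35 and -0.48).

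Sequences upstream of the members were read from RefSeq (GRCm38.p6) for 64 of the 78, as windows from 250 bases before to 50 bases after the start of the gene. Both strands were searched for GCGCA and GCGC with any 1 base between them (nuclear respiratory factor 1, NRF1), CCGGAAG (ETS factors, among them GABP) and AAGATGGCG (YY1). Overlapping matches were each counted. The NRF1 letters were found in 16 of the 64 windows (against 6.65% of 17492 protein-coding genes), the ETS letters in 16 (against 12.0%) and the YY1 letters in 6 (9.38%, against 1.93%). At least 1 of them was present in 33 (51.6%, against 18.6%). A match is a description of letters and not a site of binding. The windows of 5 genes with divergent patterns are given 5′ to 3′, with matches in capitals. The succinate dehydrogenase genes parted in Cx-like cells, and Ndufa11 and Cox6b2 departed from most other members.
Sdha (chr13:74350191-74350490, minus strand): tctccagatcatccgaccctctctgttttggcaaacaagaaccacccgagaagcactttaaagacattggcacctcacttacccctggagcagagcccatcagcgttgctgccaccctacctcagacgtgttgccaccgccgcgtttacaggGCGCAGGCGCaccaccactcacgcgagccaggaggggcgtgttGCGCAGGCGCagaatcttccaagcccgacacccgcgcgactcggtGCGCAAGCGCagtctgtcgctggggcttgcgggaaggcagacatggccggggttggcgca
Sdhb (chr4:140961021-140961320, plus strand): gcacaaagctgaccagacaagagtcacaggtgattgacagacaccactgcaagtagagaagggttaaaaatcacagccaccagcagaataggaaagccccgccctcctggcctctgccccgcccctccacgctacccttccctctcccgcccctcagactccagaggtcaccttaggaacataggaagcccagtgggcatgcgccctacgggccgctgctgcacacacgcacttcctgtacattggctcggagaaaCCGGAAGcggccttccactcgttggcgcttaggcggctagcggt
Sdhd (chr9:50603800-50604099, minus strand): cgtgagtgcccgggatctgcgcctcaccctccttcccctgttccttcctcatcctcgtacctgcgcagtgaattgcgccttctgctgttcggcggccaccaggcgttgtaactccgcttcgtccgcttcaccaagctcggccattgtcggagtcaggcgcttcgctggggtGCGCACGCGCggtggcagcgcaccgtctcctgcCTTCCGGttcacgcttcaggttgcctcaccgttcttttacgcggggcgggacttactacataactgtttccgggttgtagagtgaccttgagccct
Ndufa11 (chr17:56717512-56717811, plus strand): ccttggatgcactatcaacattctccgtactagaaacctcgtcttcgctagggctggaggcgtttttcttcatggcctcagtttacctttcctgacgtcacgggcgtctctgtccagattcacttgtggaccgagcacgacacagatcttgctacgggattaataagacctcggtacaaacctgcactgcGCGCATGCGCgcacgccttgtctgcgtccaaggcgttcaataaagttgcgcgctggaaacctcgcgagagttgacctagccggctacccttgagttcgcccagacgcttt
Cox6b2 (chr7:4753045-4753344, minus strand): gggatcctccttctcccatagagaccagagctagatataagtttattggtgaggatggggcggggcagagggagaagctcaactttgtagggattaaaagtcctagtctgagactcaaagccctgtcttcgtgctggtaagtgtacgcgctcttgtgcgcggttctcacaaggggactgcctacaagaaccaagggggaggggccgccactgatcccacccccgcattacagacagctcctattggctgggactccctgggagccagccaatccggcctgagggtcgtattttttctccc
The Sdha window held 3 NRF1 matches, 98, 55 and 10 bases before the start. The Sdhd window held an NRF1 match 79 bases and an ETS match 46 bases before it. The Sdhb window held an ETS match 6 bases after the start. Ndufa11 held 1 stretch that reads as NRF1 on both strands, 60 bases before the start, and Cox6b2 held none.

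Between the libraries the members differed little. Over all epithelial cells their summed level was 20716 CPM (20691 to 20741) in the PADI4 WT and 19923 CPM (19898 to 19947) in the library labelled PADI4 cKO, a log2 ratio of -0.06, and 65 of the 78 members were lower in the latter. The median was -0.06 over the members, -0.04 over the mt- genes and -0.01 over all genes. By class, the median over the members ran from -0.12 (LPC-like) to 0.03 (Med-like). Members were mostly lower in the library labelled PADI4 cKO in ORS-like (64 of 78), LPC-like (69 of 77), GL-like (66 of 77) and IRS-like cells (63 of 77). So they were in Cx-like (57 of 76), contractile-like (55 of 77) and SG-like cells (54 of 76), and in uHF-like cells 43 of 77 were lower. In these classes the median over all genes ran from -0.01 to 0.01. In Med-like and IFE-like cells 45 of 77 members were higher. In IFE-like cells the median over all genes was 0.03, against 0.02 over the members, so the members did not stand apart. That gate also held different cells in the libraries. The share of all genes lower or higher was not counted. With 1 library each, the spread between animals is unknown, and differences of this size cannot be assigned to the genotype.

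Past 0.5 in size was 1 member in 1 class, Ndufa9 of complex I, in SG-like cells (1 of 76, -0.55), where 9.01% of all genes were past it. No member was past it in ORS-like (4.66% of all genes), LPC-like (4.01%), GL-like (2.56%), IRS-like (3.51%), Cx-like (4.77%), Med-like (9.33%), IFE-like (12.5%), uHF-like (9.04%) or contractile-like cells (4.95%). Ndufa7, a small accessory subunit of complex I, had the lowest median over the classes among members with 1 sign throughout, -0.18, and was lower in 10 of 10 classes (-0.29 to -0.10). Ndufb8, Ndufb11, Uqcrfs1 and Atp5f1 were also lower in each class, with medians of -0.12, -0.10, -0.09 and -0.08, and so was Atp5l at -0.07. Ndufb2 was higher in each class, with a median of 0.07. When cells were limited to those that expressed Xist but no Y-linked gene, the log2 ratio of the summed members was -0.07.

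**Figure D4:**
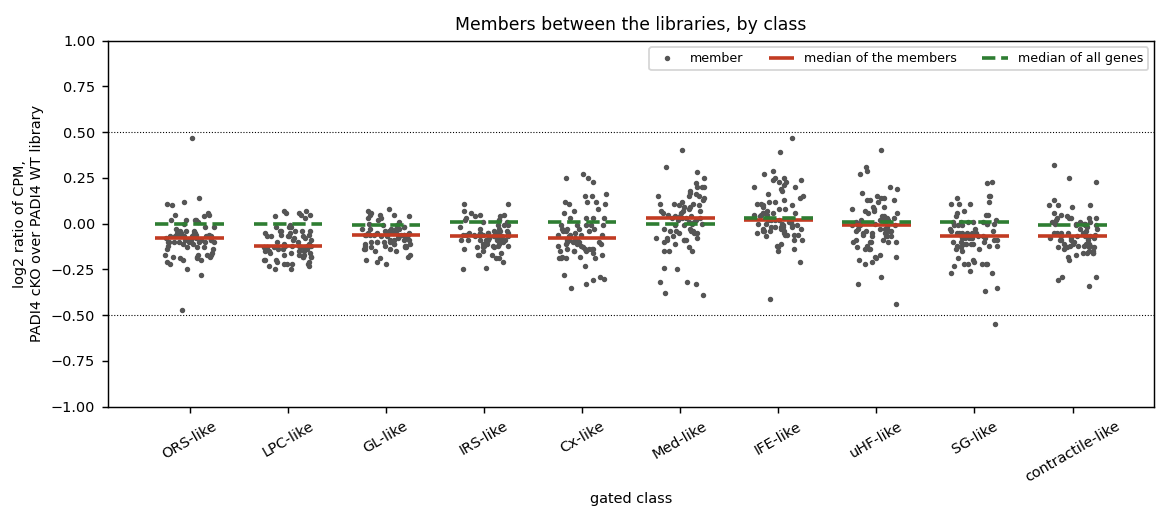
Log2 ratio of each member between the libraries (PADI4 cKO over PADI4 WT) by class, with 1 dot per member with at least 100 UMIs in the class, the median of the members (solid line) and of all genes (dashed line), and dotted lines at 0.5 and -0.5. In each class the members gather around their median, and 1 dot in SG-like cells lies past the dotted lines.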

How the data were processed

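The deposited files were raw gene-by-barcode UMI counts of the 2 libraries, which the authors made with Cell Ranger 7.1.0 (file header) and, per the processing notes in the labels, the mm10 build. The annotation and the setting for intronic reads are not given in the sources used here. Droplets with 2000 to 60000 UMIs and 1000 to 8000 genes, at most 20% mt- and 1% haemoglobin UMIs, and a ribosomal share between the 5th and 99th percentile of both libraries together were kept. Cells of the fibroblast and melanocyte gates were left out of the epithelial cells, and doublets were left in except in 1 alternative. The gate thresholds were set after the data were seen, and cells with equal counts of markers from several lists got no class.

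UMIs were summed over the cells of a class and library and divided by all their UMIs (CPM). Since each UMI is 1 transcript end, no length correction applies, and levels of different genes were not ranked. Log2 ratios used 0.5 UMI added to each sum, and needed 100 UMIs. Intervals for levels are exact Poisson and for ratios exact conditional binomial intervals. The threshold of 0.5 had to be met in both libraries between classes. Named genes were the 3 highest and 3 lowest members of a class with 1 sign in both libraries (the text describes the clearest of them), isoform sets, catalytic subunits, the members furthest from 0 with 1 sign between the libraries in every class, and the mt- genes; the pathway genes with values were chosen after they were seen. Members and lists were chosen with earlier results of these data known. The counts of 1 pathway list are not reported here. Scripts used Python 3.11.15, NumPy 2.4.6, SciPy 1.17.1, pandas 2.3.3 and Scanpy 1.11.5, and were tested on simulated data. The 16 alternatives covered cell filters, doublets, clustering, gates, scaling, free RNA, depth, sex and thresholds.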

Additional observations from a re-analysis of the deposited data

How the results depend on the processing

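The library counts cannot show animal-to-animal spread, and the SG-like, Med-like and uHF-like classes held the fewest UMIs. The direction of the SG-like and ORS-like sums and the higher ratio of members to mt- genes in SG-like cells held under each alternative run for them. The log2 ratio of the summed members in SG-like cells (0.41) was 0.43 with at least 4000 UMIs per cell, 0.42 with no ribosomal limit, 0.47 without doublets, 0.65 with Leiden clusters, 0.62 with 3 markers per gate, 0.40 in CPM without mt- and ribosomal genes, 0.34 centred on the median of all genes, 0.45 with empty droplets subtracted, 0.38 thinned to 2000 UMIs, 0.39 in cells with Xist only and 0.71 in SG-gated cells inside the SG-like cluster. Under the first 10 of these settings, in the same order, the ORS-like ratio (-0.26) was -0.23, -0.25, -0.26, -0.15, -0.36, -0.29, -0.31, -0.29, -0.28 and -0.22, and it was -0.25 in CPM without keratin genes. The log2 of members to mt- genes in SG-like cells (0.29) was 0.30 at 4000 UMIs, 0.33 with no ribosomal limit, 0.31 without doublets, 0.44 with clusters, 0.41 with 3 markers, 0.32 with empty droplets subtracted, 0.23 thinned, 0.26 in Xist cells and 0.48 inside the cluster. Members above in SG-like cells (22) numbered 48 with clusters, 51 inside the cluster, 45 with 3 markers, 7 when thinned and 49 at a threshold of 0.25. Members below in ORS-like cells (9) numbered 0 with clusters, 18 with 3 markers, 2 in Xist cells and 46 at 0.25. Members below in Cx-like cells (5) numbered 3 with clusters, without mt- and ribosomal genes, or at 500 UMIs, 2 when thinned and 21 at 0.25. Members past 0.5 between the libraries (1 over all classes) numbered 3 at 4000 UMIs per cell, 2 with no ribosomal limit, empty droplets subtracted or a minimum of 50 UMIs, 6 with 3 markers or Xist cells, 15 when thinned, 0 at 500 UMIs and 49 at 0.25; clusters gave no summed value because not every class had a cluster. The sum between the libraries (-0.06) was -0.05 with no ribosomal limit, -0.04 centred or thinned, -0.06 with empty droplets subtracted and -0.07 in Xist cells. Signs of values near 0 turned: the members to mt- ratio of Cx-like cells to 0.02 with no ribosomal limit and 0.01 with clusters, the sum in IFE-like cells to -0.12 and in uHF-like cells to 0.03 with clusters, and that in contractile-like cells to 0.01 at 4000 UMIs or thinned and 0.02 with clusters or centred. Doublets (3.14% and 4.01% of cells) were called at the threshold of the library labelled PADI4 cKO, since the automatic one marked 0.0123% of PADI4 WT cells. The splits of the SG-like and IFE-like gates and the minimum at the level of the other cells were chosen after seeing the data. That minimum left 1 member above in ORS-like cells in place of 2. The causes were not tested. No paired analysis was possible because each genotype has 1 library.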

Other observations

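The counts of the mt- genes differed unequally from the other cells in SG-like cells. Whether the tags tell neighbouring mt- genes apart was not tested, so these are counts and not separate transcript levels. The log2 ratios to the other epithelial cells, as means of both libraries, were 0.62 for mt-Nd4l, 0.52 for mt-Atp8, 0.43 for mt-Nd5, 0.41 for mt-Nd3, and 0.35 for both mt-Nd1 and mt-Nd2, which encode complex I subunits except mt-Atp8 of complex V. The 3 complex IV genes stood at 0.11 (mt-Co1), 0.07 (mt-Co2) and -0.11 (mt-Co3), mt-Atp6 at 0.16, mt-Cytb of complex III at 0.18 and mt-Nd4 at 0.17. In ORS-like cells mt-Nd1 stood lowest at -0.54, with 2125 CPM in each library, and mt-Co1 stood at 0.10.

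In a clustering made without the members, the cluster led by Cyp2g1, Far2, Soat1, Cidea and Elovl3 (101 cells) had the highest member level of 26 clusters, 31810 CPM. The lowest was 15520 CPM, in a cluster of 1035 cells led by Pdlim3, Ebf1, Nkain2, Galntl6 and Col4a3 whose cells had a median of 8886 UMIs. By the marker lists this cluster was named ORS-like. A cluster led by Krt1 and Stfa1 held 191 PADI4 WT and 14 PADI4 cKO cells and had the lowest ratio of members to mt- genes, 0.450.

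Of the 78 members, 29 share more than 10% of the 31-base words in the last 500 bases of their coding transcripts with another annotated gene, and 33 share none. Atp5l shares 76.2%, Ndufs3 67.4%, Atp5h 63.8% and Uqcrb 58.3%, so their levels are the least certain.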
